A study of Mus musculus with 17 samples.

Results

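Club and secretory airway genes were followed here as a set of 9 named genes, Scgb1a1, Scgb3a1, Scgb3a2, Cyp2f2, Bpifa1, Bpifb1, Reg3g, Muc5b and Muc5ac, out of 17555 gene names in the expression tables of 3 cell populations. A gene was taken by its name in the table of a population. All 9 were in the tumor cell table, 5 were in the table of MDMs and 3 were in that of TRMs, both sets of macrophages under the abbreviations of the labels. The macrophage tables hold fewer genes, so a member missing from them was not listed, and its level there was not analysed here.

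The conducting airway of the mouse is lined by club cells, ciliated cells and, in fewer numbers, goblet and basal cells. Club cells release small secretoglobins and carry cytochrome P450 enzymes that convert inhaled chemicals, whereas goblet cells are known for gel-forming mucins. Secreted proteins of the BPI fold and Reg families belong to the defence of the airway surface. Alveolar type 2 (AT2) cells, which make surfactant, and club cells have both been used as origins of lung tumors in mice.

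All mice carried KrasLSL-G12D/+ and Lkb1fl/fl, and KLG4 mice carried Gpx4m/m in addition, an allele from which Gpx4 exons can be removed by a tamoxifen-dependent recombinase that Cre first switches on. KL and KLG4 mice both received Ad-Cre through the nose and then tamoxifen, and cells were taken 10 weeks after Ad-Cre, from animals of a C57BL/6 background that were 8 to 10 weeks old at the start per the methods of the study. Ad-Cre acts in whichever lung cells the virus enters, and tumor cells were sorted as EpCAM+, CD31- and CD45- per the main text of the study, a gate that names no marker of the transformed state. The supplementary text, as read here, prints CD45+ in places. Each population had 2 KL and 2 KLG4 libraries, 12 in all. The study counts the replicates of its tumor cell data as mice. For the macrophages no source used here ties a library to an animal, so a p-value there measures only the spread between libraries.

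Recovered depth ran from 15.9 to 36.6 M counted reads (M, mega) in tumor cells, from 9.14 to 26.8 M in TRMs and from 10.4 to 26.1 M in MDMs. Levels are RPKM, reads per kilobase of gene and per M counted reads. Gpx4 itself, summed over all its exons, was at 94.95 and 76.8 RPKM in KL and 56.4 and 61.9 RPKM in KLG4 tumor cells. The 2 KLG4 tumor cell libraries differed from each other far less than any other pair. Their median chi-square over genes with at least 50 reads was 3.04 times the value for independent reads, of which about 2 can come from counting both mates of a pair, against 17.2 times for the KL tumor cell pair and 7.93 to 34.2 times for the macrophage pairs. Xist, transcribed in females, and Eif2s3y, on the Y chromosome, were both present in every tumor cell library, at 4.17 to 6.18 and 7.27 to 9.26 RPKM. A library with both transcripts cannot hold RNA of 1 mouse alone, and no source used here says whether animals were pooled or 1 preparation was split. If either was done, n = 2 does not count mice in tumor cells, and a p-value there too measures only the spread between libraries. The result for each member in tumor cells is therefore also given with the KLG4 pair averaged and counted as 1 sample.

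The promoters of the 3 members with the largest differences in tumor cells, Bpifb1, Reg3g and Scgb3a1, and of Bpifa1, the neighbor of Bpifb1, are shown because these genes differed in the same direction. Sequences are RefSeq promoters of GRCm38.p6, the 250 bases before the annotated start, written along the strand of the gene. Capitals mark TATAAA (the TATA box), TGTTTNC (a forkhead core), CTCAAG (an NKX2-1 core) and AGGAAG (an ETS-type core), each searched on both strands. No marked stretch overlapped another.
Bpifb1, chr2:154190568-154190817, plus strand: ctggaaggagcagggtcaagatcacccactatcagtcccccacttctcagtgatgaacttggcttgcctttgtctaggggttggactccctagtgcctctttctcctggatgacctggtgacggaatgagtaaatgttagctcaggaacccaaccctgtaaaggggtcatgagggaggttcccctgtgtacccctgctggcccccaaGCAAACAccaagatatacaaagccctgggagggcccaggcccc
Bpifa1, chr2:154142630-154142879, plus strand: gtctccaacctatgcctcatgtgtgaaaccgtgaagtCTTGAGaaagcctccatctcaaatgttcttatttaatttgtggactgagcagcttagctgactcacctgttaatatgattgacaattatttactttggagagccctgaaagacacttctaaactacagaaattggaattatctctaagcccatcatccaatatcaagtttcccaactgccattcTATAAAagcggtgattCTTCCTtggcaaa
Reg3g, chr6:78468875-78469124, minus strand: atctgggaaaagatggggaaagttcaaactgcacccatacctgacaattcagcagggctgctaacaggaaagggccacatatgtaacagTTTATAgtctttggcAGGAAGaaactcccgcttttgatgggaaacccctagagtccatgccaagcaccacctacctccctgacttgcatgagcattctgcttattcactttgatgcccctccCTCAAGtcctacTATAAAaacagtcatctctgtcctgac
Scgb3a1, chr11:49663345-49663594, plus strand: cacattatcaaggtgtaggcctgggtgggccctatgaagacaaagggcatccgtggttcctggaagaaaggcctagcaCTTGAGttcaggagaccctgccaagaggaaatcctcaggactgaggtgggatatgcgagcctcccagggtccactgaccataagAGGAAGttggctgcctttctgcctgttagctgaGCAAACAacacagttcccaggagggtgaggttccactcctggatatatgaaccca
Of the 5 members with a promoter in the table (these 4 and Cyp2f2), TATAAA was found in 2, Bpifa1 and Reg3g, where it began 29 and 27 bases before the start, and again 161 bases before it in Reg3g. The share of all 32851 promoters with TATAAA in the same window was 12.4%. TGTTTNC was found in 2 of the 5, Bpifb1 and Scgb3a1, against 17.8% of all promoters, and CTCAAG in 3 of the 5, Bpifa1, Reg3g and Scgb3a1, against 13.3%. AGGAAG was in 4 of the 5, all but Bpifb1, against 29.5%. These are matches of letters and carry no evidence of binding.

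In tumor cells, all 9 members were higher in both KLG4 libraries than in both KL libraries. For 8 of the 9 the difference had an adjusted p under 0.05 by limma over the 13770 genes tested, beside 40.3% of all tested genes in either direction and 20.6% in this one. The ninth, Muc5b, missed it, and Muc5ac, among the 8, entered the test through its level in KLG4. The share of all tested genes with both KLG4 libraries above both KL libraries was 32.5%. The members were chosen with earlier results of these data known, so the shares stand beside them as a description. The median log2 difference of the members was 1.41, beside a median of -0.09 over all tested genes. At 2-fold or more with an unadjusted p under 0.05 by limma, 6 of the 9 were higher, beside 16.6% of all tested genes. The study states such a cut-off for its CD8+ T cell genes and its lipids. With the KLG4 pair counted as 1 sample, 3 of the 9, Scgb3a1, Bpifb1 and Reg3g, kept an adjusted p under 0.05, beside 11.5% of all tested genes called higher, and the number of all genes called fell from 5543 to 1923. Leaving out KLG4 replicate 1 left 3 members called and leaving out KLG4 replicate 2 left 4, beside 11.6% and 11.3% of all tested genes called higher. Mitochondrial genes took 4.21% and 5.12% of reads in KL and 8.95% and 8.88% in KLG4 tumor cells, and with levels set on the other reads 8 members were called, beside 21.5% of all tested genes called higher. The averaging and both fits without a KLG4 library have a single KLG4 sample, which is assumed to vary like KL.

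**Figure D1:**
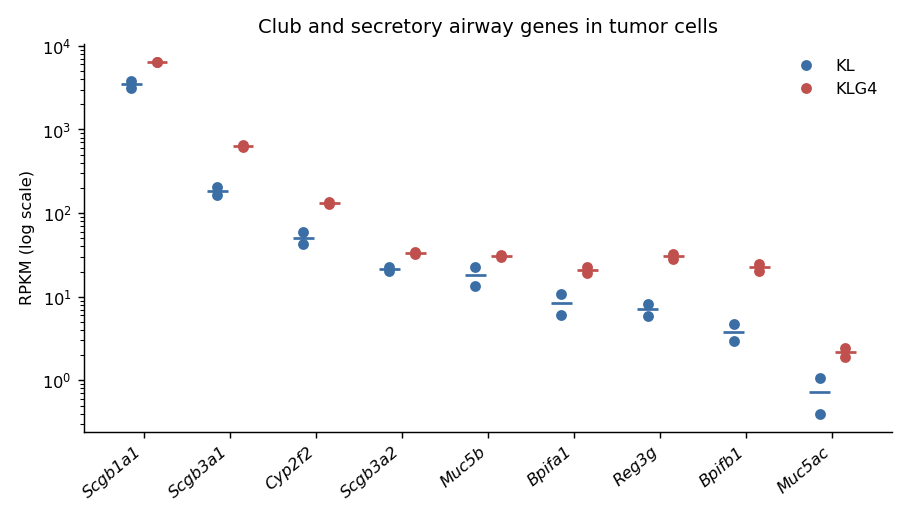
RPKM of the 9 members in the 4 tumor cell libraries, on a log axis, with a point per library and a line at the group mean (blue KL, red KLG4, n = 2 each). Both red points lie above both blue points for every gene, from Scgb1a1 at 3128 to 6483 RPKM down to Muc5ac at 0.396 to 2.44 RPKM.

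The secretoglobins are small secreted proteins, and Scgb1a1 encodes the club cell secretory protein that defines the cell type. Scgb1a1 (chr19:9083636-9087958, minus strand) was at 3128 and 3848 RPKM in KL and 6332 and 6483 RPKM in KLG4 tumor cells. KL averaged 3488 ± 509 and KLG4 6407 ± 107 RPKM (SD, n = 2 each), a difference of 0.88 ± 0.17 (SE) on the log2(RPKM + 0.1) scale with an adjusted p of 0.0116 by limma. It was among the most abundant genes of these cells, ranked 19 and 14 by RPKM in the KL libraries and 11 in both KLG4 libraries. Its adjusted p was 0.29 with the KLG4 pair counted as 1 sample.

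Scgb3a1, a secretoglobin of the upper airway, was at 203 and 165 RPKM in KL and 647 and 620 RPKM in KLG4 (chr11:49663610-49665118, plus strand). The groups lay far apart, with a log2 difference of 1.79 ± 0.14 (SE) and an adjusted p of 0.00071, and of 0.0277 with the KLG4 pair as 1 sample. Scgb3a2, a relative found in the smaller airways, was at 22.4 and 20.6 RPKM in KL and 34.0 and 32.1 RPKM in KLG4. Its log2 difference of 0.62 ± 0.12 was the smallest of the 9, with an adjusted p of 0.0124, which became 0.149 with the KLG4 pair as 1 sample. The ratios between secretoglobins are given without a test. The level of Scgb1a1 was 15.4 and 23.4 times that of Scgb3a1 in KL and 9.79 and 10.4 times in KLG4, whereas it was 140 and 187 times that of Scgb3a2 in KL and 186 and 202 times in KLG4, where the groups overlapped.

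Cyp2f2 encodes the cytochrome P450 that makes mouse club cells sensitive to naphthalene. It was at 42.2 and 58.7 RPKM in KL and 138 and 127 RPKM in KLG4 (chr7:27119909-27133660, plus strand). The KLG4 mean was 2.62 times the KL mean, with a log2 difference of 1.41 ± 0.18 and an adjusted p of 0.00314, or 0.0533 with the KLG4 pair as 1 sample. An annotated antisense gene, Gm15883, overlaps Cyp2f2, and counting without strand cannot separate them.

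Bpifa1 and Bpifb1, secreted lipid-binding proteins of the airway surface, lie 41.6 kb apart on chromosome 2 (chr2:154142880-154149219 and chr2:154190818-154220369, both plus strand). Bpifa1 was at 6.08 and 10.8 RPKM in KL and 19.0 and 22.8 RPKM in KLG4, a log2 difference of 1.35 ± 0.29 with an adjusted p of 0.0164. Bpifb1 was at 2.95 and 4.70 RPKM in KL and 20.4 and 24.5 RPKM in KLG4, a log2 difference of 2.55 ± 0.25 with an adjusted p of 0.00127. Bpifb1 had the largest difference of the 9 members. Per length, Bpifa1 stood above Bpifb1 in KL, at 2.06 and 2.29 times its level, and at 0.930 and 0.931 times in KLG4. With the KLG4 pair as 1 sample the adjusted p was 0.0263 for Bpifb1 and 0.121 for Bpifa1.

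Reg3g encodes a secreted lectin that acts on Gram-positive bacteria. It was at 8.16 and 5.94 RPKM in KL and 28.4 and 32.5 RPKM in KLG4 (chr6:78466269-78468872, minus strand). The KLG4 libraries stood clear of the KL libraries, with a log2 difference of 2.11 ± 0.19 and an adjusted p of 0.00103, or 0.0246 with the KLG4 pair as 1 sample.

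Muc5b and Muc5ac, the gel-forming mucins of the airway, are neighbors on chromosome 7, 19.8 kb apart (chr7:141839070-141873084 and chr7:141788972-141819231, both plus strand). Muc5b was at 13.3 and 22.8 RPKM in KL and 29.7 and 31.4 RPKM in KLG4. The KL libraries were farther apart than the gap between the groups, and the log2 difference of 0.81 ± 0.26 had an adjusted p of 0.0582, or 0.255 with the KLG4 pair as 1 sample. Leaving out KL replicate 1 lowered the log2 difference to 0.42, and leaving out KL replicate 2 raised it to 1.19. Each of these fits had a single KL sample, so its residual spread came from the KLG4 pair alone. Muc5ac was the lowest member, at 0.396 and 1.06 RPKM in KL and 1.91 and 2.44 RPKM in KLG4, with 156 and 346 reads against 362 and 418. The KL libraries alone would not have passed the filter of 1 RPKM in 2 libraries, so the higher KLG4 level was a condition of its being tested. Its log2 difference of 1.57 ± 0.44 had an adjusted p of 0.0381, or 0.179 with the KLG4 pair as 1 sample, and was 0.96 without KL replicate 1. Without KL replicate 2 the log2 difference of Muc5ac was 2.19. The level of Muc5b was 33.6 and 21.4 times that of Muc5ac in KL and 15.6 and 12.9 times in KLG4.

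Summed over the 9 members, reads took 0.196% and 0.247% of all counted reads in the KL tumor cell libraries and 0.434% and 0.443% in the KLG4 ones. Scgb1a1 supplied 69.5% to 76.1% of these reads in each library. In absolute reads the groups were similar, 71625 and 74568 in KL and 76540 and 70533 in KLG4, from KLG4 libraries of 17.6 and 15.9 M reads and KL libraries of 36.6 and 30.2 M. Such a share depends on all other RNA in the library as well. Bulk libraries cannot tell more secretory cells from more RNA per cell.

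The 4 further lists of airway genes, 57 genes in all, were set beside the members, and 42 of them passed the filter in tumor cells. Of these 42, 20 were higher and 7 lower in KLG4 at an adjusted p under 0.05, beside 20.6% and 19.6% of all tested genes. Of the 20 higher ones, 5 would not have passed the filter from the KL libraries alone. With the KLG4 pair as 1 sample, 9 were called, beside 14% of all tested genes, as were 9 without KLG4 replicate 1 (beside 14.5%) and 8 without KLG4 replicate 2 (beside 14%). Of 13 tested genes that mark club cells or their metabolism, 10 were higher and none lower, with a median log2 difference of 1.31. Being higher was a condition of testing for 2 of the 10, Cldn10 and Cckar, which passed the filter only through KLG4. Gabrp, a GABA receptor subunit, rose from 1.70 and 3.18 to 6.90 and 9.13 RPKM, with a log2 difference of 1.73 and an adjusted p of 0.0115, and Gsta3, a glutathione transferase, rose by 1.65 (adjusted p of 0.00203). Cyp2a5, Cyp2b10 and Aox3 were at log2 differences of 0.15, 0.21 and 0.76 and did not pass.

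Of 10 tested mucin and goblet genes, 3 were higher and 2 lower, beside 20.6% and 19.6% of all tested genes. Of the 3, Clca1 and Fcgbp passed the filter only through KLG4. Clca1, a secreted protein that goblet cells make together with mucus, was at 0.564 and 0.4552 RPKM in KL and 63.2 and 68.7 RPKM in KLG4, with a log2 difference of 6.76 and an adjusted p of 6.91e-05. Tff2, a trefoil peptide, rose by 1.23 (adjusted p of 0.00193). Tff1, another trefoil peptide, was among the most abundant and fell, from 2138 and 1413 to 699 and 695 RPKM, with a log2 difference of -1.32 and an adjusted p of 0.00701. Spdef, which drives goblet cells, was under 1 RPKM in each library.

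Among 9 tested genes of secreted defence, 5 were higher and 1, Wfdc2, was lower, beside 20.6% and 19.6% of all tested genes, and 1 of the 5, Chia1, passed the filter only through KLG4. Chil4, a chitinase-like protein that both epithelium and myeloid cells can make, rose from 1.20 and 2.17 to 113 and 117 RPKM, with a log2 difference of 6.06 and an adjusted p of 0.000183. Slpi, a protease inhibitor, rose by 1.75 (adjusted p of 0.00162) and Pigr, the receptor that carries IgA across epithelium, by 1.03 (adjusted p of 0.00174). Of 10 tested airway regulators, 2 were higher and 4 lower, beside the same shares. Notch2, a receptor that also acts in leukocytes, rose by 1.78 (adjusted p of 0.000917), and Creb3l1, a transcription factor bound to the endoplasmic reticulum, rose by 0.91 (adjusted p of 0.0117). Nkx2-1, the factor that defines lung epithelium and acts on both surfactant and secretoglobin genes, fell from 16.0 and 18.8 to 4.91 and 6.19 RPKM, with a log2 difference of -1.64 and an adjusted p of 0.00176.

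**Figure D2:**
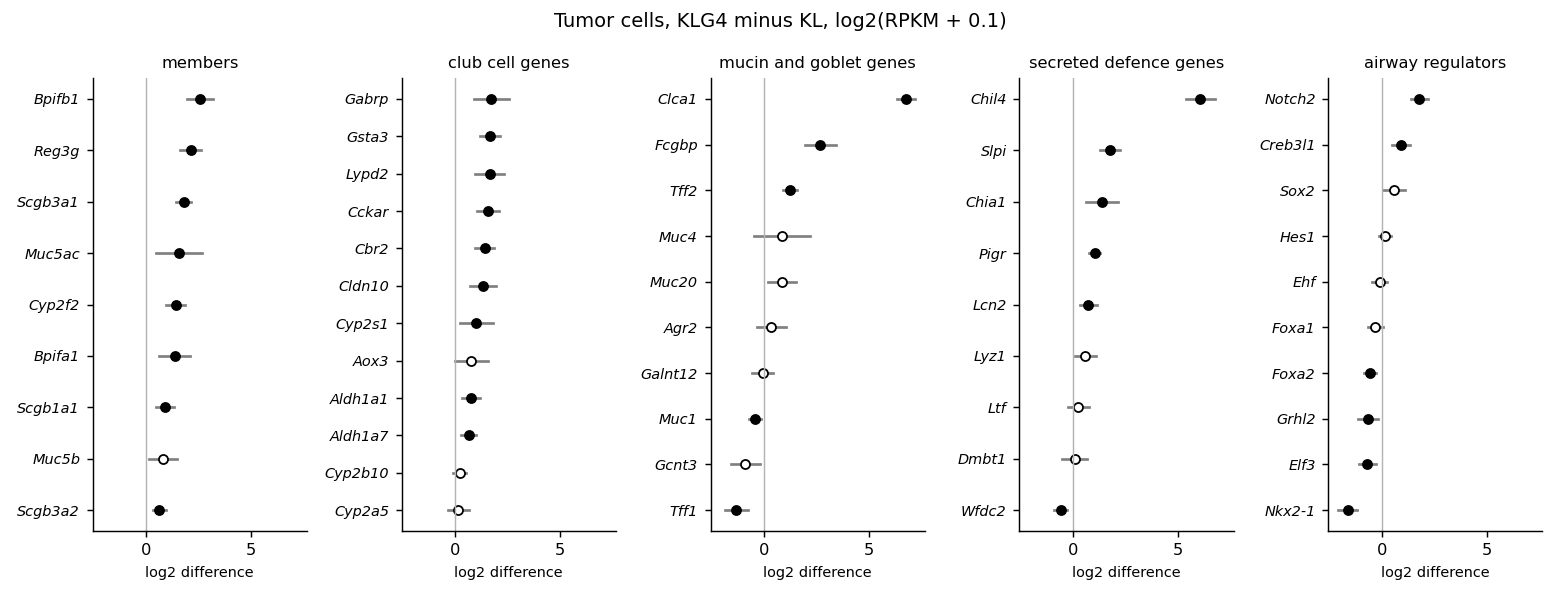
Log2 difference between KLG4 and KL tumor cells (x axis, log2(RPKM + 0.1)) for the 9 members and the tested genes of 4 airway lists (a club cell gene is left out), with 95% confidence intervals as gray lines and filled points for an adjusted p under 0.05. All 9 members and all club cell genes drawn lie above 0, while the other lists have genes on both sides.

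Marker lists moved along with these genes, and their part in the results was not tested. Their counts are at an adjusted p under 0.05 by limma, where 20.6% of all tested genes were higher and 19.6% lower. All 10 leukocyte genes were higher in KLG4 tumor cells, with a summed level of 25.0 and 34.5 RPKM in KL and 305 and 313 RPKM in KLG4, and Ptprc, which encodes CD45, at 0.834 and 2.06 against 26.7 and 27.4 RPKM. Of the 10, 5 passed the filter only through KLG4, Ptprc among them, as did 5 of the fibroblast genes and 4 of the neutrophil genes that follow. All 10 fibroblast genes were higher as well, summing to 23.2 and 41.0 against 471 and 478 RPKM. All 9 tested neutrophil genes were higher, summing to 190 and 296 against 2356 and 2262 RPKM. Of 10 alveolar macrophage genes 7 were higher, 2 of which, Siglecf and Itgax, passed the filter only through KLG4, and Marco among the 7 was at 2.72 and 3.04 against 17.2 and 17.9 RPKM. Epithelial markers were lower in KLG4 in 9 of 10 genes, with Epcam at 638 and 420 against 215 and 211 RPKM. All 10 AT2 markers were lower (Etv5 would not have passed the filter from KLG4 alone), with Sftpc at 1324 and 1506 against 331 and 335 RPKM, so that Scgb1a1 stood at 2.36 and 2.55 times Sftpc in KL and at 19.1 and 19.3 times in KLG4.

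The cells of the airway were otherwise mixed. None of the 10 ciliated markers passed the test, and 9 of the 10 had a log2 difference above 0. Foxj1, the factor of ciliated cells, was at 16.2 and 21.2 RPKM in KL and 17.8 and 19.9 RPKM in KLG4. Of 5 tested basal cell markers, 3 were higher (Krt5, Krt15 and Krt17) and 2 lower (Krt14 and Aqp3), beside 20.6% and 19.6% of all tested genes. Krt5 was at 0.586 and 1.09 RPKM in KL and 3.21 and 2.84 RPKM in KLG4, with an adjusted p of 0.0088, and it passed the filter only through KLG4. Measured relative to the mean of the ciliated markers of each library, 6 of the 9 members were higher at an adjusted p under 0.05, beside 15.6% of all tested genes, and Scgb1a1 (log2 difference of 0.65, adjusted p of 0.221), Scgb3a2 (0.39, adjusted p of 0.339) and Muc5b (0.58, adjusted p of 0.125) were not. Relative to the epithelial markers, which were themselves lower in KLG4, all 9 were called, beside 60.5% of all tested genes called higher, with log2 differences of 1.54 to 3.48 beside a median of 0.83 over all tested genes.

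**Figure D3:**
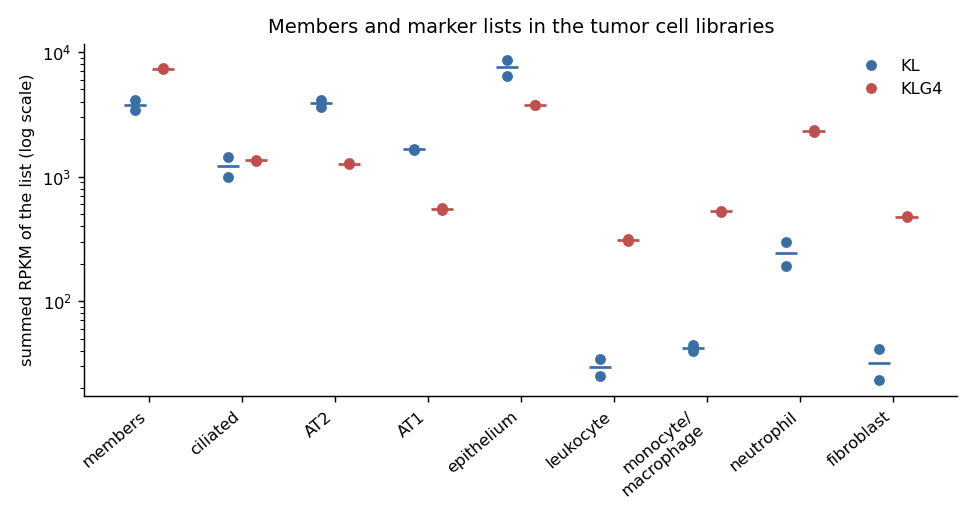
Summed RPKM of the members and of 8 marker lists in the 4 tumor cell libraries, on a log axis, with a point per library and a line at the group mean (blue KL, red KLG4). Members are higher in KLG4, ciliated markers overlap, AT2, AT1 and epithelial markers are lower, and leukocyte, macrophage, neutrophil and fibroblast lists are higher.

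**Figure D4:**
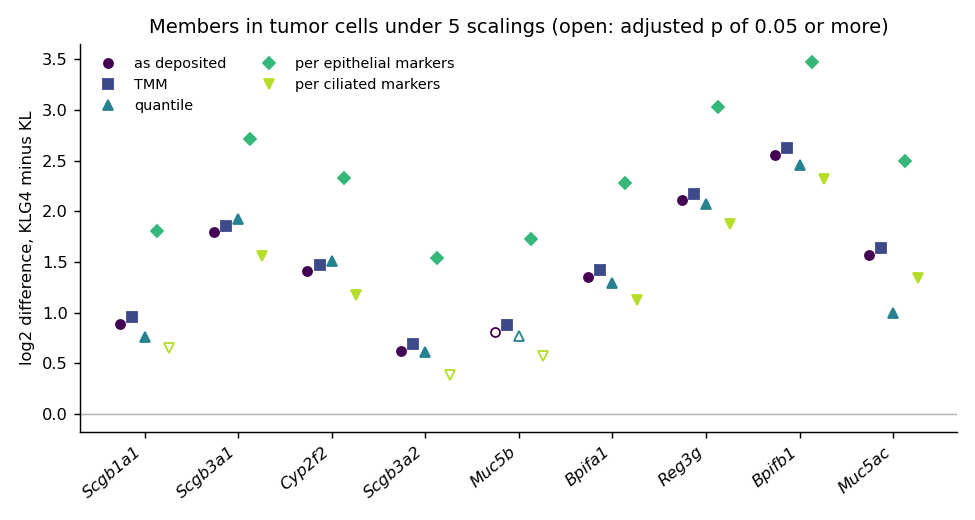
Log2 difference of each member between KLG4 and KL tumor cells under 5 scalings of the libraries, with open symbols for an adjusted p of 0.05 or more. All values are above 0, the highest relative to epithelial markers and, for all members but Muc5ac, the lowest relative to ciliated markers.

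In TRMs, 3 members were listed, all of them at a small fraction of their level in tumor cells and all lower in KLG4. Scgb3a1 was at 5.02 and 8.05 RPKM in KL and 0.4996 and 0.284 RPKM in KLG4, from 30 and 44 reads against 8 and 2. It passed the filter only through KL, so a difference was a condition of its being tested. The log2 difference was -3.75 ± 0.43 (SE), with an adjusted p of 0.0348 by limma over 10990 genes, of which 1.8% were called and 0.437% called lower. Without the mean-variance trend the adjusted p was 0.0788. Scgb1a1 was at 19.3 and 46.0 RPKM in KL and 15.1 and 18.6 RPKM in KLG4, with a log2 difference of -0.83 ± 0.41 and an adjusted p of 0.236. Leaving out KL replicate 2 moved it to -0.21, and leaving out KL replicate 1 to -1.45. Cyp2f2 was at 0.889 and 1.57 against 0.572 and 0.336 RPKM and did not pass the filter. Both KLG4 libraries lay below both KL libraries for all 3, as they did for 8.95% of tested genes and 18.4% of those that did not pass the filter.

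Mitochondrial genes took 13.2% and 9.17% of reads in KL TRMs and 1.43% and 2.40% in KLG4 TRMs. With levels set on the other reads, the log2 differences were -3.90 for Scgb3a1, which remained called, and -0.97 for Scgb1a1. Epithelial transcripts are given beside these values too. None of 7 tested epithelial markers passed, of which 5 had a negative and 2 a positive log2 difference, and of 9 tested AT2 markers 2, Sftpa1 and Sftpd, were lower at an adjusted p under 0.05, and 3 had a positive value without passing. Sftpc was at 87.1 and 107 RPKM in KL and 16.4 and 40.4 RPKM in KLG4 TRMs, and the summed epithelial markers were at 130 and 149 against 66.5 and 106 RPKM. Epcam was at 16.7 and 19.5 against 13.1 and 27.1 RPKM, and Cdh1 at 16.8 and 26.2 against 33.3 and 39.9 RPKM. Relative to the epithelial markers, the log2 difference was 0.60 for Scgb1a1 and -2.32 for Scgb3a1. Both lay below the median of 1.81 over all tested genes with that reference. Without it the median was 0.38. Xist was at 0.257 and 0.501 RPKM in KL and 18.3 and 20.2 RPKM in KLG4 TRMs and Eif2s3y was listed at 0 in KLG4 alone, so genotype and sex cannot be told apart here.

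In MDMs, 5 members were listed, and none passed the test, where 0% of 10475 genes had an adjusted p under 0.05 by limma and 6.74% had an unadjusted p under 0.05. Scgb1a1 was at 13.8 and 83.0 RPKM in KL and 16.1 and 18.8 RPKM in KLG4. KL replicate 2 alone was high. The log2 difference was -0.96 ± 0.87 with an adjusted p of 0.723. It was 0.33 without KL replicate 2, and -2.25 with an adjusted p of 0.0188 without KL replicate 1, a fit in which 25.6% of all tested genes were called. Scgb3a1 was at 1.53 and 3.55 against 1.22 and 1.80 RPKM, and the groups overlapped. Its log2 difference was -0.62 ± 0.50, and it was -0.04 without KL replicate 2, -1.20 without KL replicate 1 and -0.36 without KLG4 replicate 1. Mitochondrial genes took 1.35% and 3.36% of reads in KL and 0.494% and 0.661% in KLG4 MDMs.

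The other 3 were below the filter. Cyp2f2 was at 1.17 and 0.523 RPKM in KL and 0.227 and 0.417 RPKM in KLG4, Muc5b at 0.392 and 0.760 against 0.215 and 0.324 RPKM, and Muc5ac at 0.170 and 0.143 against 0.0214 and 0.107 RPKM. The groups did not overlap for these 3, beside 30.6% of the genes that did not pass the filter with both KLG4 libraries below both KL libraries. KL replicate 2 also had the highest epithelial markers, summing to 272 RPKM against 28.7 to 83.7 RPKM in the other MDM libraries (none of 7 tested passed), and AT2 markers of 383 against 42.4 to 161 RPKM. It stood apart in Xist as well, at 0.839 against 19.4 to 21.8 RPKM. All 4 MDM libraries were rich in neutrophil genes, with S100a9 at 9379 to 21106 RPKM. KL replicate 2 had the lowest sum of neutrophil genes, 10743 against 18227 to 23752 RPKM, and the highest of monocyte and macrophage genes, 2398 against 476 to 619 RPKM.

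**Figure D5:**
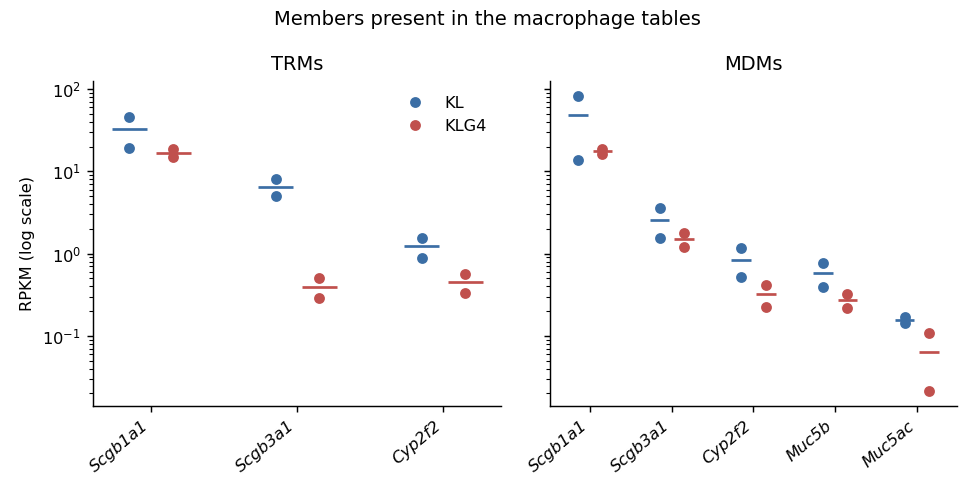
RPKM on a log axis of the 3 members listed in TRMs and the 5 listed in MDMs, with a point per library and a line at the group mean (blue KL, red KLG4, n = 2 each). KLG4 lies below KL for Scgb3a1 in TRMs, and KL replicate 2 is the single high point for Scgb1a1 in MDMs at 83.0 RPKM.

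Across populations, Scgb1a1 was highest in KLG4 tumor cells, then in KL tumor cells, with no overlap between them, and the macrophage groups followed. The 4 macrophage groups, with means of 16.8 to 48.4 RPKM, could not be ordered, because the KL MDM libraries spanned the values of all the others and KLG4 TRMs overlapped with KLG4 MDMs. The tables were normalized separately, so this order is a description. As a share of the tumor cell mean of the same genotype, Scgb1a1 was at 0.554% and 1.32% in KL TRMs and 0.235% and 0.290% in KLG4 TRMs, and Sftpc at 6.15% and 7.54% and at 4.91% and 12.1%. In MDMs, Scgb1a1 was at 0.396% and 2.38% in KL and 0.252% and 0.294% in KLG4. The AT2 markers varied widely in this share, from 2.22% (Sftpb) to 29.5% (Napsa) in TRMs of KL replicate 2, where Scgb3a1 was at 4.38%.

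Within TRMs the ratio of Scgb1a1 to Scgb3a1 was 3.85 and 5.71 in KL and 30.2 and 65.3 in KLG4, whereas in MDMs it was 9.02 and 23.4 in KL and 13.2 and 10.5 in KLG4. The KLG4 TRM ratios rest on 8 and 2 reads of Scgb3a1. Over the 12 libraries, the genes whose log2 level was most like that of Scgb1a1 were Cbr2 (Pearson r of 0.996), Aldh1a1 (0.992) and Wdr78 (0.992), among 8098 genes. These libraries share populations that differ widely in epithelial RNA, so genes that are mainly epithelial can look alike over them. Bpifa1 and Muc5ac were not in all 3 tables, so no likeness was computed for them.

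Of the genes of the other airway lists in macrophages, none had an adjusted p under 0.05 by limma in either population, of 13 tested in TRMs and 13 in MDMs, and 6 and 5 had an unadjusted p under 0.05, beside 28.3% and 6.74% of all tested genes. In TRMs, Hes1, a target of Notch signaling, was at 2.90 and 1.504 RPKM in KL and 0.293 and 0.459 RPKM in KLG4, with an adjusted p of 0.0809. Notch2 (log2 difference of 1.54) and Chil4 (1.54) had positive values in TRMs, and Wfdc2 (-1.79), Pigr (-1.48) and Aldh1a1 (-1.12) negative ones. In MDMs, Elf3, an epithelial ETS factor, was at 2.67 and 4.30 RPKM in KL and 0.277 and 0.520 RPKM in KLG4, and Tff1 (log2 difference of -3.48), Wfdc2 (-2.19) and Pigr (-1.36) were on the same side, while Ltf, a neutrophil granule protein as well as an airway one, was at 1.09. The adjusted p was 0.679 for each of these 5 genes. Hes1, Wfdc2 and Pigr in TRMs and Elf3, Tff1, Wfdc2 and Pigr in MDMs would not have passed the filter from the KLG4 libraries alone, so their level in KL was a condition of their being tested. Without KL replicate 2, 2 of the 13 list genes were called in TRMs, beside 21.7% of all tested genes, and without KL replicate 1, 7 of 13 were called in MDMs, beside 25.6%.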

How the data were processed

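Lung tumor cells, TRMs and MDMs had 12 RNA sequencing libraries, 2 for each genotype and population. A further 5 samples were not analysed here. Groups and replicate numbers came from the sample titles. Per the submitters' notes and the methods of the study, reads were trimmed (Trim Galore 0.6.4), aligned to GRCm38 (HISAT2 2.0.5) and counted per gene without strand (featureCounts 2.0.0). The authors deposited RPKM values in a separate table for each population, with no factor between libraries. The deposited tables also hold log2 fold changes with their p-values and false discovery rates, a mean log2 level and a score (F) from comparisons of the authors, and these were not used. Gene length, in the tumor cell table alone, was carried to the others by name.

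Whole reads were recovered from the RPKM values, of which 99.99% to 100.0% lay within 0.05 of a whole read. Both mates of most pairs were counted, so counting noise exceeds what the read totals imply. Tests ran in limma 3.58.1 under R 4.3.3, within a table, on log2(RPKM + 0.1). The variance prior followed mean level, and genes needed 1 RPKM or more in 2 or more of the 4 libraries. All p-values are two-sided, adjusted by the Benjamini-Hochberg method over all genes tested. Fold changes on this scale understate the change of low genes. Alternatives were the pseudocount (1, 0.01), the filter, scaling, no trend, a replicate block, limma-voom on recovered reads and leaving out each library. Scaling to ciliated markers and averaging the KLG4 tumor cell pair were chosen after seeing the data. Figures were drawn with matplotlib (version 3.10.9). The fit was tested on simulated data.

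The members and all gene lists were chosen with earlier results of these data known. From each airway list, up to 3 genes with the largest log2 difference at an adjusted p under 0.05, with 5 RPKM or more on average in either group, were named per population, or, where none passed, at an unadjusted p under 0.05, along with Epcam, Sftpc, Foxj1, Krt5, Ptprc and Marco. A gene that this rule selects is not reported here. Other genes were named after their values were seen. Member positions are those of the tumor cell table and equal GENCODE M21, and 5 of 9 members had a RefSeq promoter.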

Additional observations from a re-analysis of the deposited data

Results flagged for a closer look

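Of 8 comparisons of a member between a macrophage population and tumor cells, 6 had every KLG4 library above every KL library in tumor cells and below in the macrophages. They were 3 of 3 in TRMs and 3 of 5 in MDMs. Of all genes in both tables that were higher in tumor cells in this way, 10.7% lay below in TRMs and 18.9% in MDMs. The difference between populations was not tested, because the tables were normalized separately. In TRMs the log2 differences were -3.75 for Scgb3a1 (1.79 in tumor cells), -0.83 for Scgb1a1 (0.88) and -1.25 for Cyp2f2 (1.41). In MDMs they were -1.11 for Cyp2f2 (1.41), -0.83 for Muc5b (0.81) and -0.69 for Muc5ac (1.57). Cyp2f2, Muc5b and Muc5ac were below the filter in the macrophages, where their values rest on 6 to 126 reads per library. Among all genes below the filter, both KLG4 libraries lay below both KL libraries for 18.4% in TRMs and 30.6% in MDMs. Groups of 2 libraries are too small for a test of single libraries that stand apart.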

How the results depend on the processing

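In tumor cells, all members kept a positive log2 difference under each alternative run. Fewer members were called without a KLG4 library or with the KLG4 pair averaged, as given above. Counts from those fits, and from fits without a KL library, rest on a single sample in a group. The number of other airway genes called in tumor cells, 27, ranged from 8 to 34 when a library was left out (14% to 53.5% of all genes), and was 9 with the KLG4 pair averaged (14%) and 16 relative to ciliated markers (31.2%). For the 42 tested, TMM scaling gave 22 higher and 4 lower, and epithelial markers as the reference 36 and 2, where 62.7% of all genes were called. In TRMs the member call was lost (0 called) without the trend and with a mean of at least 5 RPKM, where Scgb3a1 was not tested. Other airway genes called in TRMs were 5 relative to epithelial markers (beside 57.4% of all genes) and 3 by limma-voom (7.11%), and 0 to 2 when a library was left out (1.03% to 21.7%). In MDMs, leaving out a library gave 0 to 1 members and 0 to 7 other airway genes called (0% to 25.6% of all genes). The sign of Scgb1a1 turned relative to epithelial markers in TRMs (0.60) and MDMs (1.06), as that of Scgb3a1 did in MDMs (1.39), and leaving out a library moved Scgb1a1 in MDMs from -2.25 to 0.33. The median of all genes moved to 0.83, 1.81 and 2.04 in tumor cells, TRMs and MDMs with that reference. Except as given by construction (fewer samples or genes), the cause was not tested.

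With the replicate number as a block in limma, 9 members were called in tumor cells, Muc5b included (adjusted p of 0.0186). Of all tested genes, 20.8% were called higher in that fit. Other airway genes called were 28, beside 39.1% of all tested genes called. No source says that the numbers pair samples, and the deviations of same-numbered libraries correlated at 0.02 in tumor cells, -0.06 in TRMs and 0.05 in MDMs. The block changed no other member call. Few reads lie behind the macrophage values, since Scgb3a1 had 2 to 44 reads in a TRM library and 17 to 28 in an MDM library.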
